A study of Homo sapiens with 6 samples.

Results

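The peaks described here lie on repeated, organellar or unplaced DNA: the ribosomal DNA arrays, the mitochondrial genome, and the sequences of the human assembly that have no place on a chromosome or are alternate versions of a placed region. The assay was ChIP-seq, which sequences the DNA an antibody pulls down from fixed chromatin. The antibody was BG4, which binds G-quadruplexes, 4-stranded structures that guanine-rich DNA can fold into. The cells were U2OS, a human osteosarcoma line. They were either treated with 1,6-hexanediol (HD), an alcohol that weakens many of the contacts holding biomolecular condensates together, or left without treatment (Ctrl). Both conditions used the same line, antibody and formaldehyde fixation, and each had 2 BG4 libraries and 1 input library. No label states how much hexanediol was used or for how long.

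Members were chosen by position alone, in 3 groups. Peaks inside chr21:8200000-8470000 (hg38), where 45S ribosomal units lie, formed the ribosomal window, with 37 peaks in the HD list and 41 in the Ctrl list. Peaks on chrM formed the mitochondrial group, with 6 HD peaks and 5 Ctrl peaks. Peaks on unplaced, unpositioned ("random") and alternate sequences formed the third group, with 86 HD peaks and 118 Ctrl peaks. In all, 129 of 2269 HD peaks (5.69%, 95% exact binomial interval 4.77 to 6.72) and 164 of 3507 Ctrl peaks (4.68%, 4.0 to 5.43) were members. They held more of the length of the lists than of the count, at 18.9% of the covered bases in the HD list and 13.7% in the Ctrl list. Only 1 list stood for each condition, so the values carry no error between replicates, and differences between HD and Ctrl could not be set against such an error. PCR copies are not independent molecules. The HD peak names all bear the label of replicate 1, so the HD peaks may come from 1 library. All intervals are at 95% and cover counting error only.

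Human ribosomal DNA is carried as tandem repeats on the short arms of the acrocentric chromosomes. Each repeat has a transcribed part, read by RNA polymerase I in the nucleolus into a 45S precursor, and a long intergenic spacer that is mostly not transcribed. The precursor holds, in order, the 5′ external spacer, 18S, internal spacer 1, 5.8S, internal spacer 2, 28S and the 3′ external spacer, and only the 18S, 5.8S and 28S parts stay in the ribosome. The transcribed part is rich in guanine and cytosine, and the nucleolus is itself a condensate formed around it. The mitochondrial genome is a small circle present in many copies per cell. One of its strands is rich in guanine. It encodes 2 ribosomal RNAs, 22 transfer RNAs and 13 proteins that serve the respiratory chain.

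The assembly held 5 full ribosomal units and 3 partial copies. RNA45SN2, RNA45SN3 and RNA45SN1 lie on chromosome 21 at chr21:8205988-8219302, chr21:8389035-8402343 and chr21:8433222-8446572. RNA45SN4 lies on chr22_KI270733v1_random and RNA45SN5 on chrUn_GL000220v1. The partial copies, named by their 18S pseudogenes, are RNA18SP5 on chromosome 21, RNA18SP4 on chr22_KI270733v1_random and RNA18SP3 on chrUn_GL000220v1. The copies are nearly identical, and the labels do not state how reads that fit several copies were placed. The 8 copies are therefore not independent observations of a site.

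A genome sequence was not used here, so the letters under the peaks are known only where a RefSeq table of microRNAs or promoters (GRCh38.p14) covers them. The first sequences shown are microRNAs at or near the start of ribosomal units and one of the same name as a microRNA there, with runs of GGG or longer in capitals, because such runs are the building blocks of G-quadruplexes. MIR6724-4 (chr21:8432530-8432621, plus strand) begins 692 bases before the start of RNA45SN1 and lies in a peak of both lists. MIR10396B (chr21:8436324-8436374, plus strand) begins 3102 bases into the 5′ external spacer of RNA45SN1, inside an HD peak and outside the Ctrl peaks. The mature hsa-miR-3648 (chr21:8987026-8987046, plus strand) is read here from MIR3648-2, outside the window, and lies in a peak of both lists. MIR3648-1, of the same name, lies in the 5′ external spacer of RNA45SN2, also in a peak of both lists. MIR10396A (chr21:8987617-8987665), close in name to MIR10396B, lies outside the window and in no peak of either list.
MIR6724-4 hairpin: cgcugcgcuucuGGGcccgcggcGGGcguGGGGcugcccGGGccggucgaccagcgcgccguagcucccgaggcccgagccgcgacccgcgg
MIR10396B hairpin: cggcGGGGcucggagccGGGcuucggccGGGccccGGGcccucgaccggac
hsa-miR-3648: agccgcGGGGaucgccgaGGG
Both hairpins hold 4 runs of GGG or longer, while 11% of the 1562 human hairpins in the table have at least 4. Their GC content is 83.7% for MIR6724-4 and 86.3% for MIR10396B, against a median of 52.1% over all hairpins. Neither holds 4 such runs with only 1 to 7 bases between neighbours, an arrangement that 2.43% of the hairpins have, so no match to that motif was found in these short windows. The hairpin of MIR6724-2, which lies before the partial copy RNA18SP5, has the same letters as that of MIR6724-4. MIR6724-1 to MIR6724-4 begin between 673 and 692 bases before their unit, and each of the 4 lay within a peak of both lists.

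Peaks covered most of the transcribed part of every full unit in both conditions. The share of the 45S gene under peaks was 92.3% for RNA45SN2, 83.4% for RNA45SN3, 96.1% for RNA45SN1, 98.4% for RNA45SN4 and 89.1% for RNA45SN5 in the HD list. In the Ctrl list the shares were 89.0% for RNA45SN2, 80.4% for RNA45SN3, 89.0% for RNA45SN1, 94.6% for RNA45SN4 and 83.5% for RNA45SN5. Coverage was thus higher in the HD list in each of the 5 full units. The partial copy RNA18SP5 was mixed. There the 5′ external spacer was covered to 70.7% in HD and 75.7% in Ctrl, and internal spacer 2 to 71.7% and 55.6%. Window peaks had a median of 233 fragments at the summit in HD and 178 in Ctrl, before the caller's scaling. That scaling multiplied the fragments by 0.715 in HD and by 0.927 in Ctrl, so the raw numbers do not show a stronger signal in HD. The part of fragment number in the coverage was not tested. The genes for 18S and 5.8S rRNA, which form the small subunit and part of the large subunit of the ribosome, were covered from end to end in all 5 units of both lists, and so was internal spacer 1 between them.

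**Figure D1:**
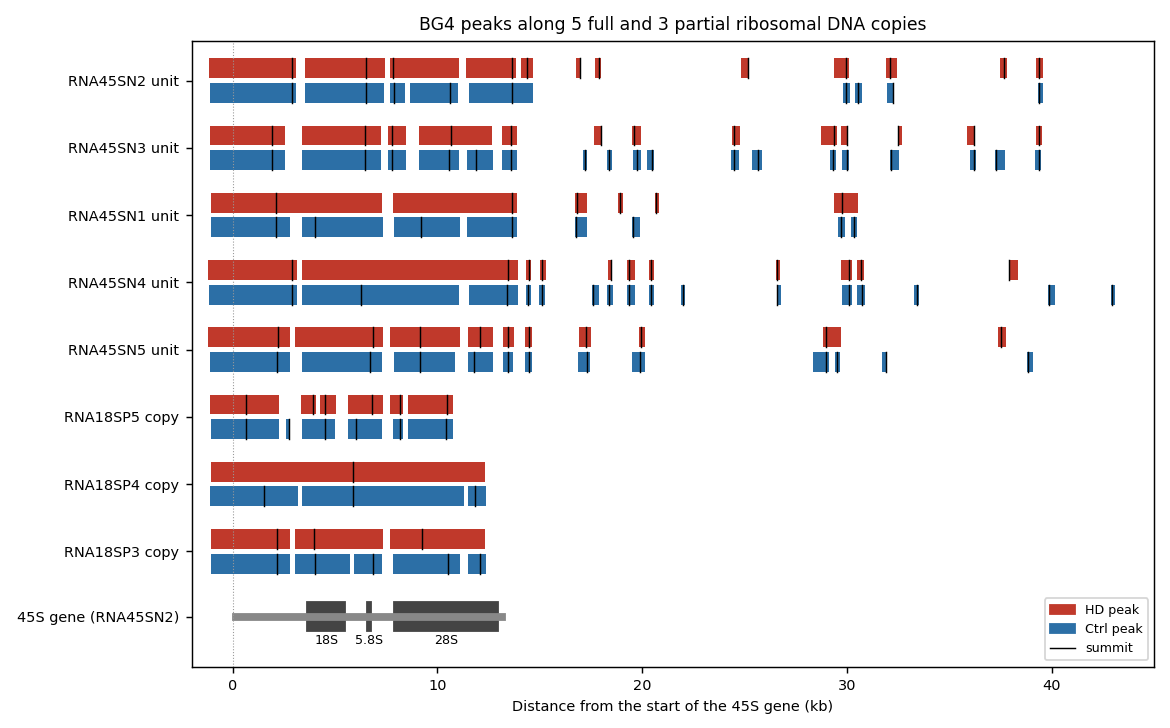
Peaks of the HD list (red, upper row of each pair) and the Ctrl list (blue, lower row) along the 5 full units and 3 partial copies of ribosomal DNA, against distance from the start of the 45S gene in kb. Black lines are summits, and the bottom track shows the 18S, 5.8S and 28S genes of RNA45SN2. Wide peaks fill the transcribed part in both lists, and narrow peaks dot the spacer.

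The covered stretch began before the gene. The first peak of each of the 8 copies started between 1028 and 1203 bases upstream of the 45S start in the HD list, and between 1046 and 1136 bases upstream in the Ctrl list. This upstream DNA includes the promoter that RNA polymerase I uses and the MIR6724 sequences shown above. No summit lay in the 2 kb before the start in either list, so the upstream DNA was the shoulder of peaks whose highest point was further in.

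The transcribed part was not covered evenly, and uncovered gaps recurred in the same segments of different copies, though not always at overlapping positions. A gap within the 5′ external spacer, lying somewhere between 2.6 and 3.5 kb from the start, was present in 4 of 5 full units in the HD list and in 5 of 5 in the Ctrl list. A gap within internal spacer 2, between 7.3 and 7.8 kb in the HD list and between 7.2 and 7.9 kb in the Ctrl list, was present in 4 of 5 units in each. A gap in the middle of 28S, the main RNA of the large subunit, was 338 to 402 bases long and present in 2 units in the HD list. It was 376 to 622 bases long and present in 5 units in the Ctrl list. In RNA45SN3, RNA45SN1 and RNA45SN4 a single HD peak ran across the place where a pair of Ctrl peaks left this gap. In RNA45SN1 the HD list also had no gap in the 5′ external spacer, and the MIR10396B sequence above lies in that stretch.

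Such joined peaks were counted over all ribosomal sequence. Over the whole lists, 60.0% of HD peaks and 39.0% of Ctrl peaks had at least 1 base in common with a peak of the other list. Of the 62 HD peaks in the window and on the 45S-bearing scaffolds together, 10 overlapped 2 or more Ctrl peaks each. Of the 77 Ctrl peaks there, 2 overlapped 2 or more HD peaks. Outside the 3 groups, 3 of 2140 HD peaks and 2 of 3343 Ctrl peaks overlapped 2 or more peaks of the other list. The widest HD peak, 13386 bases on chr22_KI270733v1_random, ran over nearly all of the RNA18SP4 copy, and the widest Ctrl peak, 7875 bases, lay on the same copy. Ribosomal peaks were wide in both lists: 21 of the 62 HD peaks and 24 of the 77 Ctrl peaks were wider than any peak outside the 3 groups, where the widest was 1673 bases in the HD list and 1676 bases in the Ctrl list.

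Summits in the transcribed part made up a minority of the ribosomal peaks by number. In the window, 14 of 37 HD summits (37.8%, interval 22.5 to 55.2) and 18 of 41 Ctrl summits (43.9%, 28.5 to 60.3) were in the transcribed part, and the other 23 summits of each list were in the intergenic spacer. On the scaffolds that carry RNA45SN4 and RNA45SN5, 9 of 25 HD summits and 14 of 36 Ctrl summits were in the transcribed part. Over window and scaffolds together, the 5′ external spacer held 7 HD summits and 9 Ctrl summits, 28S held 6 HD summits and 11 Ctrl summits, and the 2 internal spacers together with 5.8S held the rest apart from 3 summits in 18S in each list. None lay in the 3′ external spacer. All 3 HD summits in 18S were in partial copies. In RNA18SP5, which holds 2 of them, 18S was covered to 63.1% in HD and to 73.3% in Ctrl. Within the 5 full units, where 18S was covered from end to end, it held no HD summit and 1 Ctrl summit, in RNA45SN1. Each listed peak has 1 summit, so a joined peak counts in 1 segment only. Over RNA18SP4, for example, the HD list had 1 peak, with its summit in internal spacer 1, and the Ctrl list had 3 peaks. Differences between the lists in summits per segment can therefore come from where peaks were joined.

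Fold enrichment, the authors' ratio of ChIP signal to the caller's local background at the summit varied along the transcribed part. Its lowest values there were 2.98 in 28S and 3.11 in 18S in the HD list, and 2.37 and 2.67 in 28S in the Ctrl list. The median over 28S was 3.89 in HD and 4.29 in Ctrl, beside 4.02 in HD and 4.17 in Ctrl over the whole lists. In the window and scaffolds the 7 HD summits of the 5′ external spacer had a median fold of 5.92 (range 5.27 to 7.28) and the 9 Ctrl summits a median of 4.84 (3.71 to 6.18). Within the HD list the highest ribosomal fold was 7.28 in RNA45SN3, 1.94 kb from the start, followed by 7.24 in RNA18SP5, 0.66 kb from its inferred start. Within the Ctrl list the highest were 6.49 in internal spacer 1 of RNA18SP5 and 6.2 in internal spacer 1 of RNA45SN4. In the HD list the 5′ external spacer held the highest fold of RNA45SN2, RNA45SN3, RNA45SN1 and RNA45SN5, and the spacer just past the gene that of RNA45SN4. In the Ctrl list it held the highest fold of RNA45SN2 only among the full units. These folds too come from 1 summit per peak, so a joined peak adds a value to 1 segment only.

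**Figure D2:**
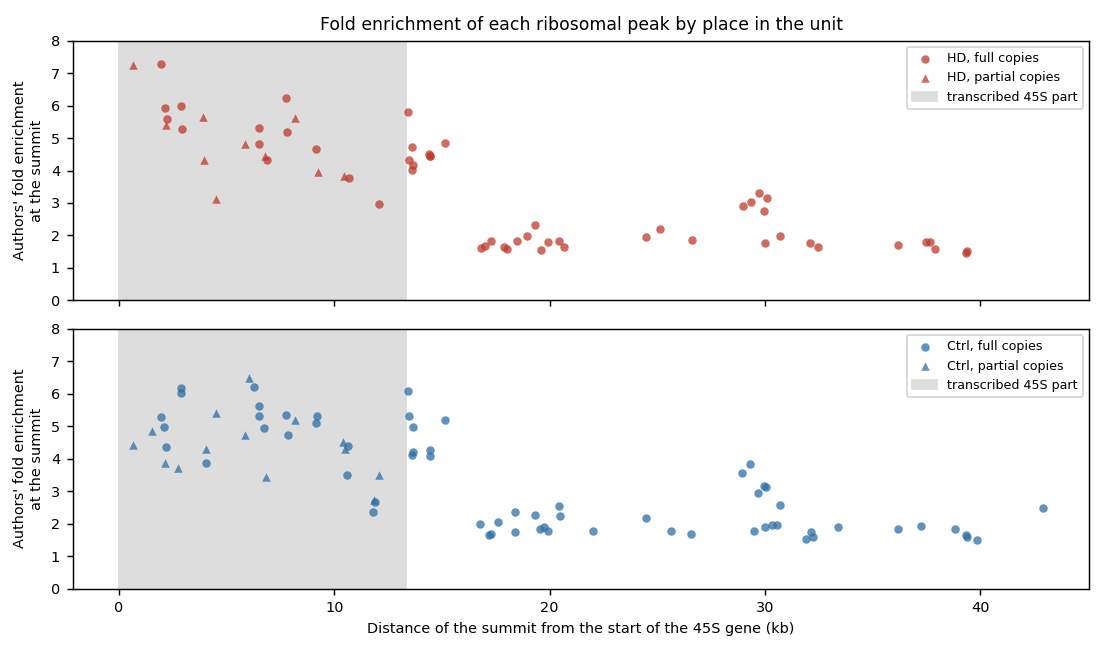
The authors' fold enrichment at each ribosomal summit against its distance from the start of the 45S gene in kb, with the HD list above and the Ctrl list below. Circles are full units, triangles are partial copies and the grey band is the transcribed part. Folds are between 2.98 and 7.28 (HD) or 2.37 and 6.49 (Ctrl) in the band and stay above 4 just past it. They are below 4 in the rest of the spacer, where the highest lie near 30 kb.

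The spacer divided into a strong part beside the gene and a weak part beyond it. Within 2 kb past the 45S end, where the elements that stop RNA polymerase I lie, there were 9 HD summits and 8 Ctrl summits, spread over all 5 full units, and all of them lay in peaks found in both lists. Their fold ranged from 4.03 to 5.8 in the HD list and from 4.07 to 6.10 in the Ctrl list. Further than 2 kb past the end there were 30 HD summits with a median fold of 1.80 (range 1.47 to 3.30) and 37 Ctrl summits with a median of 1.91 (range 1.49 to 3.83). The caller's expectation from input was at much the same level in both parts of the spacer, with medians of 17.5 and 19.7 times the genome-wide level in the HD list and 17.3 and 18.4 times in the Ctrl list.

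One site in the far spacer stood out in all 5 units of both lists. It lay 28.3 to 30.9 kb from the start of the 45S gene. Its strongest HD peak had a fold of 2.75 in RNA45SN2, 3.03 in RNA45SN3, 3.30 in RNA45SN1, 3.16 in RNA45SN4 and 2.91 in RNA45SN5. Its strongest Ctrl peak had a fold of 3.16 in RNA45SN2, 3.83 in RNA45SN3, 2.93 in RNA45SN1, 3.12 in RNA45SN4 and 3.56 in RNA45SN5. The summit moved little between lists within a unit, for example 29.35 kb in HD and 29.33 kb in Ctrl for RNA45SN3, and it differed more between units, from 28.99 to 30.10 kb in the HD list. A second stretch, 16.7 to 20.8 kb from the start, held 12 HD peaks in 5 units and 12 Ctrl peaks in 4 units, with no fold above 2.31 in HD or 2.54 in Ctrl.

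Most ribosomal peaks were found in both lists. A peak was counted as shared when it had at least 1 base in common with a peak of the other list, as above. In the window, 30 of 37 HD peaks (81.1%, interval 64.8 to 92.0) were shared, as were 33 of 41 Ctrl peaks (80.5%, 65.1 to 91.2). Outside the 3 groups the shares were 59.3% of HD peaks and 38% of Ctrl peaks. The median width was 738 bases for HD window peaks and 522 for Ctrl window peaks, against 272 for HD peaks and 262 for Ctrl peaks outside the groups. Wider peaks meet a peak of the other list more easily, and the part of width in the sharing was not tested. With overlap of at least 50% of each peak asked for, the shares were 59.5% for HD window peaks and 53.7% for Ctrl window peaks.

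Every window peak that was in the HD list alone lay in the intergenic spacer, 7 of 7. Of the 8 window peaks in the Ctrl list alone, 7 lay in the spacer and 1 in the 5′ external spacer of RNA18SP5. Over all window peaks, 23 of 37 in HD (62.2%) and 23 of 41 in Ctrl (56.1%) had their summit in the spacer. Spacer peaks were also narrower, with median widths of 405 bases in HD and 333 in Ctrl. In the transcribed part these were 3362 bases in HD and 2284 in Ctrl. The part of width here was not tested. An unshared HD peak in the RNA45SN2 spacer, 16.98 kb from the start, had a fold of 1.66. It had 150 fragments at the summit (exact Poisson interval 127 to 176). The highest fold of the unshared HD window peaks was 2.21, at 25.14 kb in the same spacer. The unshared Ctrl peak in RNA18SP5 had a fold of 3.71, the highest of the unshared Ctrl window peaks. Of the 30 shared HD peaks and 33 shared Ctrl peaks, 26 pairs had summits at most 200 bases apart, the limit used for pairing. Among these, 18 were within 25 bases, and the median distance was 14.0 bases, beside 39.0 bases over the 1213 pairs chosen by the same limit outside the groups.

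Just outside the window, at 803 bases past its end, the HD list had a peak at chr21:8470803-8471392 with a fold of 1.98 and a −log10 q of 8.68, with no Ctrl peak. The last peaks inside the window were an HD peak at chr21:8462594-8463732 with a fold of 3.30 and a Ctrl peak at chr21:8463406-8463715 with a fold of 1.97. Further along, over MIR3648-2, an HD peak at chr21:8986790-8987598 had a fold of 5.14 and a Ctrl peak at chr21:8986776-8987586 had a fold of 4.83. Their input levels, 12.4 times genome-wide in HD and 12.1 times in Ctrl, were within the range of the window peaks of each list.

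The number of fragments at each summit and the caller's expectation were recovered from the fold and p of each peak, and enrichment here is the scaled fragment pileup divided by the expectation. The input level is the expectation divided by the genome-wide expectation of the list. The ribosomal window had a median input level of 17.5 (range 4.96 to 26.4) in the HD list and 17.3 (5.90 to 24.8) in the Ctrl list, against medians of 1.35 for HD and 1.44 for Ctrl outside the groups. Ribosomal peaks thus rested on many fragments, a median of 233 in the HD window and 178 in the Ctrl window, where peaks outside the groups had medians of 37.0 for HD and 27.0 for Ctrl. Their median enrichment was nonetheless lower, at 3.16 in the HD window and 3.54 in the Ctrl window. Outside the groups it was 4.68 for HD and 4.86 for Ctrl. The window medians mixed unlike parts. In the transcribed part the median was 5.59 in HD and 5.21 in Ctrl. In the intergenic spacer it was 1.79 in HD and 1.94 in Ctrl. With more fragments a lower enrichment passes the caller's threshold, and the part of this in the contrast was not tested.

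**Figure D3:**
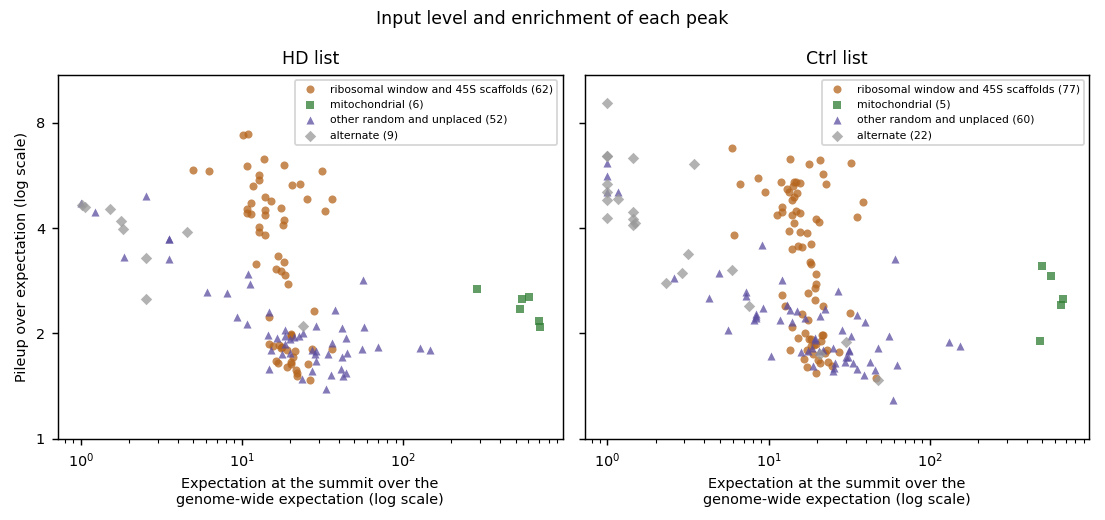
Enrichment at the summit (pileup over expectation, log scale) against input level (expectation over the genome-wide expectation, log scale) for each member peak, with the HD list at left and the Ctrl list at right. Mitochondrial peaks sit at input levels of 288 to 705 (HD) and 485 to 675 (Ctrl), ribosomal window peaks at 4.96 to 26.4 (HD) and 5.90 to 24.8 (Ctrl), and most alternate sequences near the genome-wide level of 1.

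At matched summits the ratio of HD to Ctrl enrichment was near 1 for ribosomal DNA. Its median over the 26 window pairs was 0.94 (quartiles 0.88 and 1.11), beside 0.92 (0.76 and 1.1) over the 1213 pairs outside the groups. Over the window and the 45S scaffolds the median ratio differed with the place in the unit. The 7 pairs in the 5′ external spacer had a median of 1.29, with 5 above 1, as were 465 of the 1213 pairs outside the groups. The 12 pairs in the rest of the transcribed part had a median of 0.97, the 8 pairs within 2 kb past the end 0.95, and the 20 pairs further into the spacer 0.91.

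The pair with the highest ratio was in the 5′ external spacer of RNA18SP5, where the summit was at the same base in both lists. There were 414 fragments in HD and 247 in Ctrl. The enrichment was 7.40 in HD and 4.49 in Ctrl, a ratio of 1.65 (1.40 to 1.94 from the counting error of the ChIP fragments, and 1.06 to 2.57 once that of the input was added). The pair with the lowest ratio lay in the same copy, in 18S, with 212 fragments in HD and 178 in Ctrl. The enrichment there was 3.16 in HD and 5.55 in Ctrl, a ratio of 0.57 (0.46 to 0.70, or 0.35 to 0.94 with the input). The input level was 12.2 in HD and 8.59 in Ctrl. Another HD peak in this 18S, left out of the pairing, overlapped the same Ctrl peak and had an enrichment of 5.82. The ratio of 0.57 thus holds for the paired summits and not for 18S as a whole. The pairs with the highest and the lowest ratio were the only ribosomal pairs whose interval with the input left out 1. In RNA45SN3 the enrichment 1.94 kb from the start was 7.43 in HD and 5.37 in Ctrl, a ratio of 1.38 (1.19 to 1.6, or 0.90 to 2.12 with the input). In RNA45SN4 the direction was the other way, with an enrichment of 5.32 in HD and 6.11 in Ctrl, a ratio of 0.87 (0.77 to 0.99, or 0.61 to 1.24 with the input). Outside the groups, 34 of 1213 pairs (2.80%) had an interval wholly above 1 from the ChIP fragments alone, and 1 had it with the input. Of the 7 pairs in the 5′ external spacer, 5 had an interval wholly above 1 from the ChIP fragments alone and 1 had it once the input's counting error was added. The input level, which is the denominator of the enrichment, ran the other way: the HD to Ctrl ratio of input levels had a median of 0.81 in the 5′ external spacer, 0.97 in the rest of the transcribed part and 1.04 in the far spacer. Its part in the higher enrichment was not tested.

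Most of the mitochondrial genome was under peaks in both lists. From the first to the last base of its genes, 87.9% was covered in the HD list and 93.0% in the Ctrl list. Both ribosomal RNA genes, RNR1 and RNR2, were covered from end to end in both lists. Of the 13 protein-coding genes, 5 were covered whole, 6 in part and 2 not at all in the HD list, and 7 were covered whole, 5 in part and 1 not at all in the Ctrl list. ATP8, which encodes a subunit of ATP synthase, and TRNR, the arginine transfer RNA, were under no peak in either list. ND4L, which encodes a subunit of complex I, was under no HD peak and was 69.0% covered in the Ctrl list.

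**Figure D4:**
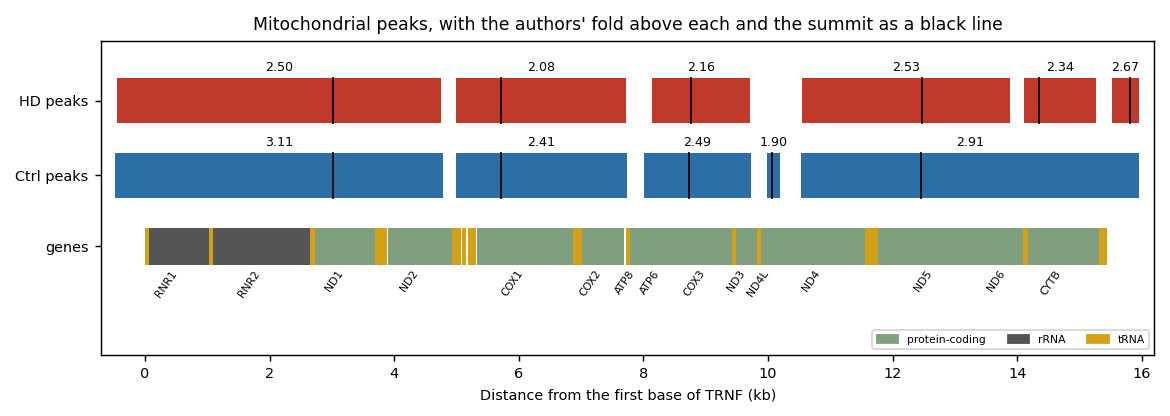
Mitochondrial peaks of the HD list (red, upper row) and the Ctrl list (blue, middle row) against distance from the first base of TRNF in kb, over the mitochondrial genes. Black lines are summits and the number above each peak is the authors' fold, between 2.08 and 2.67 in HD and between 1.90 and 3.11 in Ctrl. The long last Ctrl peak is met by 3 HD peaks.

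Both lists had summits in ND1, COX1, COX3 and ND5. The HD summits were in ND1, COX1, COX3, ND5 and CYTB, and the sixth lay in the control region, 355 bases from TRNP. The Ctrl summits were in ND1, COX1, COX3, ND4L and ND5. ND1 and ND5 encode subunits of complex I, COX1 and COX3 subunits of complex IV, and CYTB the cytochrome b of complex III. The control region holds the promoters and a replication origin. Each of the 6 HD peaks overlapped a Ctrl peak (interval 54.1 to 100%), and 4 of the 5 Ctrl peaks overlapped an HD peak (80.0%, 28.4 to 99.5). The exception was the Ctrl peak in ND4L at chrM:10557-10761, with a fold of 1.90, the lowest of the mitochondrial peaks. Over the whole lists the shares were 60.0% for HD and 39.0% for Ctrl. Peaks covered most of this genome in both lists, so an overlap of at least 1 base was easily met. The part of this in the sharing was not tested. One Ctrl peak ran from chrM:11110-16533 and met 3 HD peaks, with uncovered gaps in the HD list of 216 bases over ND6 and TRNE and of 259 bases from the end of CYTB over TRNT and TRNP. A list keeps only what passes a threshold, so a gap does not show that signal was missing.

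The mitochondrial peaks had the most fragments of all members and, apart from the Ctrl peak in ND4L, the highest −log10 q. The ND5 peak was first of all 2269 HD peaks by −log10 q, at 841, and the ND1 peak second, at 744. In the Ctrl list the ND1 peak was first, at 1057, and the ND5 peak second, at 1018. Their folds were low for their lists. The ND5 peak had a fold of 2.53, above 11.9% of HD peaks, and in Ctrl a fold of 2.91, above 16.7% of Ctrl peaks. The high ranks went with input levels of 288 to 705 in the HD list and 485 to 675 in the Ctrl list.

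At the 4 matched mitochondrial summits the enrichment was lower in HD in every case. At ND1 there were 7606 fragments in HD (exact Poisson interval 7436 to 7779) and 5787 in Ctrl (5639 to 5938). The enrichment there was 2.5 in HD and 3.11 in Ctrl, a ratio of 0.80 (0.75 to 0.86 with the counting error of ChIP and input). At COX1 it was 2.08 in HD and 2.41 in Ctrl, a ratio of 0.86 (0.81 to 0.92). At COX3 it was 2.17 in HD and 2.5 in Ctrl, a ratio of 0.87 (0.81 to 0.93). At ND5 it was 2.54 in HD and 2.91 in Ctrl, a ratio of 0.87 (0.81 to 0.93). All 4 intervals lay below 1, and all 4 ratios lay between the quartiles of the pairs outside the groups, given above. Of those 1213 pairs, 748 (61.7%) had a ratio below 1, and 12 had an interval with the input wholly below 1. Peaks outside the groups had far fewer fragments, so their intervals were wider. The summits share 1 small genome and the same libraries, so they are not independent observations.

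The third group spread over 47 sequences, of which 22 had a peak in both lists, 8 in the HD list alone and 17 in the Ctrl list alone. The 2 scaffolds that carry RNA45SN4 and RNA45SN5 held 25 of the 86 HD peaks and 36 of the 118 Ctrl peaks, and these are the ribosomal peaks already described. On these scaffolds 23 of 25 HD peaks (92.0%, interval 74.0 to 99.0) and 29 of 36 Ctrl peaks (80.6%, 64.0 to 91.8) were shared. The remaining 45 sequences held 61 HD peaks, of which 32 were shared (52.5%, 39.3 to 65.4), and 82 Ctrl peaks, of which 32 were shared (39.0%, 28.4 to 50.4). Over the whole lists the shares were 60.0% for HD and 39.0% for Ctrl.

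**Figure D5:**
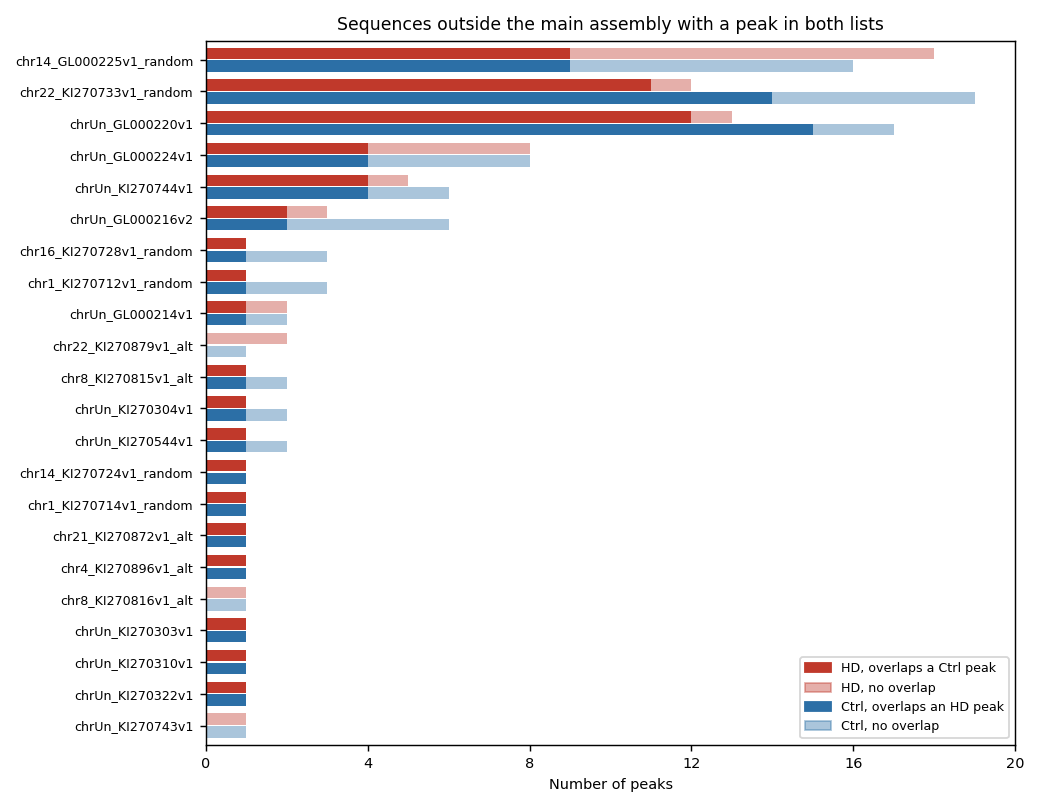
Number of peaks on each of the 22 sequences with a peak in both lists, HD (red) above Ctrl (blue). The full colour is the number that overlap a peak of the other list and the pale colour the number that do not. chr14_GL000225v1_random has 18 HD and 16 Ctrl peaks, of which 9 in each are shared.

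The peaks with the highest −log10 q of the third group were ribosomal. Of the 10 highest in each list, all but 1 lay on chr22_KI270733v1_random or chrUn_GL000220v1. The first in each list was the peak just past the end of RNA45SN4, with a summit 13.43 kb from the start in HD, a fold of 5.8 and 1013 fragments, against a fold of 6.10 and 743 fragments in Ctrl. The exception was chrUn_KI270303v1, a short unplaced sequence. Its peak had 880 fragments and a fold of 2.84 in HD and 749 fragments and a fold of 3.26 in Ctrl. Its enrichment was 2.85 in HD and 3.27 in Ctrl, a ratio of 0.87 (0.79 to 0.96 from the ChIP fragments alone, and 0.70 to 1.07 with the input).

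Outside the 45S scaffolds, unplaced sequences and those assigned to a chromosome without a position had median input levels far above 1. Sequences assigned to a chromosome held 23 HD peaks with a median fold of 2.00 and a median input level of 23.6, and 26 Ctrl peaks with a median fold of 2.15 and a median input level of 15.3. Unplaced sequences held 29 HD peaks with a median fold of 1.86 and a median input level of 22.5, and 34 Ctrl peaks with a median fold of 1.90 and a median input level of 24.0. chr14_GL000225v1_random alone held 18 HD peaks and 16 Ctrl peaks, with median folds of 1.94 in HD and 1.85 in Ctrl. It thus sets most of the values for sequences assigned to a chromosome. Some single peaks elsewhere had low input levels and higher folds. On chr1_KI270714v1_random the fold was 3.96 in HD and 4.16 in Ctrl. An HD peak on chrUn_KI270754v1 had a fold of 4.57 at an input level of 2.54, and Ctrl peaks on chr17_GL000205v2_random and chrUn_GL000218v1 had folds of 5.0 and 4.58. chrUn_GL000216v2 had the peak with the most fragments of the third group, 1461 in HD and 1054 in Ctrl, at input levels of 148 in HD and 154 in Ctrl, and its enrichment was 1.79 in HD and 1.84 in Ctrl. chrUn_KI270310v1 was similar, with 1276 fragments in HD and 933 in Ctrl and an enrichment of 1.81 in HD and 1.89 in Ctrl. Over all 30 matched pairs on sequences without a 45S unit the HD to Ctrl ratio had a median of 0.99 (range 0.64 to 1.22).

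Alternate sequences, which are other versions of regions of the main assembly and can differ from them, had mostly low input levels. They carried 9 HD peaks on 8 sequences and 22 Ctrl peaks on 16 sequences, and 3 peaks in each list were shared. These were 33.3% of the HD peaks (interval 7.49 to 70.1) and 13.6% of the Ctrl peaks (2.91 to 34.9). Over the whole lists the shares were 60.0% and 39.0%. Their median input level was near the genome-wide one, at 1.83 in HD (range 1.02 to 23.9) and 1.44 in Ctrl (range 1.00 to 47.9). Their median fold was 3.74 in HD and 3.67 in Ctrl, beside 4.06 in HD and 4.18 in Ctrl for peaks outside the groups. Where an alternate version and its main version are alike, reads can be placed on either. The sharing of these peaks was not compared with that of their main versions.

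Genes were set beside the peaks of 1 alternate sequence only, and those of the other alternate sequences were not analysed here. chr22_KI270879v1_alt holds GSTT1, which encodes a glutathione transferase and is deleted in many people, beside its pseudogene GSTTP2. The HD list had a peak with its summit 74 bases from the end of GSTT1, with a fold of 3.08 and 46 fragments, and another 169 bases from LOC391322 with a fold of 3.79 and 41 fragments. The Ctrl list had 1 peak there, inside GSTTP2, with a fold of 4.09 and 21 fragments, and it overlapped neither HD peak.

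The genes of the pathways that read and use this DNA lie elsewhere in the genome, and are described by their own peaks. A gene was called marked when a peak lay inside it or within 1 kb of either end, as 9.54% of 19821 protein-coding genes were in the HD list and 13.3% in the Ctrl list. Of 16 genes for RNA polymerase I and its factors, 0 were marked in HD and 3 in Ctrl: POLR1E, a subunit of the enzyme, and TAF1C and TAF1D, subunits of the factor that brings it to the promoter. The POLR1E peak had 30 fragments at its summit (interval 20.2 to 42.8) and a fold of 4.66. Of 18 nucleolar protein genes, 6 were marked in HD (33.3%) and 10 in Ctrl (55.6%), and all 6 were among the 10. They included NCL, the abundant nucleolar protein nucleolin that binds G-quadruplexes, with a fold of 4.31 and 30 fragments in HD and a fold of 3.08 and 20 fragments in Ctrl. TCOF1, whose product treacle serves RNA polymerase I transcription, had 37 fragments in each list, with folds of 4.60 in HD and 4.38 in Ctrl. The 4 others, with a peak in the Ctrl list only, included NPM1 and NOP56, with 33 fragments at NPM1 and 18 at NOP56.

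The 5S ribosomal RNA genes form a separate tandem cluster on chromosome 1 and are read by RNA polymerase III. Of 17, 0 were marked in HD and 3 in Ctrl (17.6%). Protein-coding genes, not a matched background for 5S genes, had a marking rate of 13.3% (Ctrl list) and 9.54% (HD list). Whether the 5S genes depart from such a rate was not tested. The Ctrl peaks were at chr1:228616782-228617077, inside RNA5S4, with a fold of 2.89, and beside RNA5S6 and RNA5S12 with folds of 2.14 and 3.02. They had −log10 q between 2.78 and 4.88, under the median of 5.93 over the Ctrl list.

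Of 15 nuclear genes listed under mitochondrial DNA upkeep and transcription, 1 was marked in HD (6.67%) and 4 in Ctrl (26.7%). The shares over all protein-coding genes were 9.54% in HD and 13.3% in Ctrl. The gene marked in both was TFB1M, which encodes the methyltransferase that modifies the small mitochondrial ribosomal RNA. Its peak had a fold of 5.85 and 39 fragments in HD (interval 27.7 to 53.3) and a fold of 5.26 and 33 fragments in Ctrl (22.7 to 46.3). POLG, the mitochondrial DNA polymerase, and RNASEH1 were marked in the Ctrl list only, with 17 fragments at POLG and 18 at RNASEH1. The TFB1M promoter, chosen after its values were seen because all 300 of its bases lie within the peak of both lists, is shown with runs of GGG or CCC and longer in capitals (chr6:155314435-155314734, minus strand).
TFB1M promoter: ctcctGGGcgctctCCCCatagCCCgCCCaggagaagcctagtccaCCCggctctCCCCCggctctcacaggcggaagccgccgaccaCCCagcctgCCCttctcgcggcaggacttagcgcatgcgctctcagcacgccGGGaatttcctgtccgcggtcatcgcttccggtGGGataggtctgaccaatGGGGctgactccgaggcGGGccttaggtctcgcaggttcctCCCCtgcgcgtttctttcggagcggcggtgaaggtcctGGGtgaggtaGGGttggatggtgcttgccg
It holds 7 runs of G and 8 runs of C. On neither strand do 4 runs follow each other with 1 to 7 bases between, an arrangement found on either strand in 25% of the 35116 promoters in the table.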

How the data were processed

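Per the submitters' processing notes, the tools were MACS2 2.2.7.1, Bowtie2 2.5.0, FastQC 0.11.9 and SAMtools, with the hg38 build. Caller settings, duplicate removal and the placing of reads that fit several sites are not stated there. The authors deposited 1 peak list per condition, with each peak's interval and summit, a fold enrichment ratio and the −log10 p and −log10 q. The −log10 q was used within a list only. Folds of the lists, which were called separately, are given side by side, and their ratio served only as an alternative to that of the enrichments. No value per library was used, and the depth of each library is unknown here.

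From the caller's definitions, fold = (pileup + 1) / (expectation + 1) and a Poisson tail for p, a whole number of fragments was recovered for all 2269 HD and all 3507 Ctrl peaks within 0.01 of the deposited −log10 p (scales 0.715 and 0.927, genome-wide expectations 3.94 and 3.46). More than 1 number matched for 15 HD and 7 Ctrl members, of which the closest was taken. The recovery was tested on simulated data.

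Genes came from a RefSeq table of GRCh38.p14. It gives no scaffold names, so RNA45SN4, RNA45SN5, the partial copies beside them and GSTT1 were put on their scaffolds from knowledge of the assembly. The start of a partial copy was inferred from its 18S. Python 3.11.15, pandas and SciPy were used, with Clopper-Pearson and Poisson intervals at 95% and no test. Intervals with the input's counting error were added after seeing the data. Named genes were those of the ribosomal units, those at mitochondrial summits, sequences with peaks in both lists, and the 10 highest peaks by −log10 q. Members and lists were chosen with earlier results of these data known. Alternatives were another overlap rule, −log10 q of at least 3, lists of equal length, merged intervals and the authors' fold.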

Additional observations from a re-analysis of the deposited data

How the results depend on the processing

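No paired analysis was possible because the replicates numbered 1 and 2 in each condition lead to 1 peak list per condition, which also means that no replicate could be left out. Of 56 alternative values, 52 stayed within the counting interval of the value reported, within 1.5 times the count, or between the quartiles of the ratio. The other 4 were shares of overlapping peaks. Asking for overlap of at least 50% of each peak gave 59.5% for HD window peaks, 53.7% for Ctrl window peaks and 40.7% for Ctrl peaks on other sequences, in place of 81.1%, 80.5% and 51.7%. With lists of equal length, 50% of HD peaks on other sequences overlapped a Ctrl peak, in place of 64.0%, since fewer Ctrl peaks were left to meet. Pairing summits at most 50 bp apart, chosen after seeing the data, left the median HD to Ctrl ratio at 0.94 in the window, 0.87 on chrM and 1.0 on other sequences. Nearly identical ribosomal copies and 1 list per condition limit what the counts can show.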
